A study of Mus musculus with 30 samples.

Results

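The genes described here are 52 mouse genes that carry pyruvate into the mitochondrion, oxidize it through pyruvate dehydrogenase and the tricarboxylic acid (TCA) cycle, and take up and oxidize fatty acids. They were chosen as members of these pathways, and all 52 were found among the 30205 genes to which the transcripts were summed. RNA was sequenced from primary mouse myoblasts and from C2C12 cells, an established mouse myoblast line that fuses into myotubes when serum is withdrawn. The primary groups were myoblasts at day 0 (D0), from dishes labelled as plastic and described by the study as coated with extracellular matrix, and myotubes on patterned gelatin at day 4 (D4) and day 7 (D7). The C2C12 groups were confluent myoblasts on plastic at D0, just before serum withdrawal, and myotubes on patterned gelatin, unpatterned gelatin and plastic at D4 and D7, with 3 libraries in each of the 10 groups.

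Patterned gelatin is a hydrogel molded with narrow parallel grooves in which cells align, unpatterned gelatin is the same hydrogel without grooves, and plastic is an ordinary culture dish. Primary myoblasts came from hindlimb muscle of 3 young adult C57/Bl6J mice, and whether each replicate number stands for 1 mouse is not stated, so the p-values measure the spread between cultures. Myotubes were enriched by brief trypsin treatment before RNA was taken. Cell type cannot be told apart from isolation, medium and coating, and myotubes on gelatin of both cell types differ from their D0 cells in substrate as well as in time.

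A resting or endurance-type muscle fiber draws most of its ATP from oxidative phosphorylation, which is fed by electrons from the TCA cycle and beta-oxidation. Pyruvate from glycolysis enters through the mitochondrial pyruvate carrier and is converted to acetyl-CoA by the pyruvate dehydrogenase complex, which pyruvate dehydrogenase kinases switch off and phosphatases switch on. Fatty acids enter the cell with the help of CD36, are bound by FABP3, are activated to acyl-CoA, cross the mitochondrial membrane as carnitine esters made by CPT1, and are shortened by the cycle of beta-oxidation, whose electrons leave through the electron transfer flavoprotein.

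Levels are given as TPM, the share of all transcripts that a gene holds, corrected for length and scaled to the same total in every library, which allows genes to be compared with each other. Fold changes are log2 values with their standard error (SE) from edgeR's quasi-likelihood test on the estimated counts, with p-values adjusted by the Benjamini-Hochberg method over all genes tested and called at 0.05. All 52 members passed the filter on low counts in the 3 fits. On the TPM scale the median of all genes lay between -0.16 and 0.16 log2 units in the 19 comparisons, so that small shifts can differ between the scales. Not every call that depended on the scale is named. Limma on log2(TPM + 1) kept 45 of 50 member calls for C2C12 cells on patterned gelatin between D7 and D0. It kept 27 of 31 for primary cells between D7 and D0, and 25 of 31 between the cell types at D0. For patterned gelatin against plastic at D7 it kept 12 of 20. Library totals ran from 13.1 to 59.4 M estimated counts. Markers of myoblasts and myotubes were present in both cell types, and the spread between libraries was wider in primary cells (biological coefficient of variation 0.248 to 0.278 within a group) than in C2C12 cells (0.0598 to 0.204), where it was widest on patterned gelatin at D7. Primary replicate 3 stood apart for several members, and was the lowest of the 3 libraries for 30 of 52 members at D4 and for 38 at D7. Replicate 3 of C2C12 cells on patterned gelatin was the lowest for 31 members at D4 and for 33 at D7. Primary replicate 3 was also low in myotube markers, whose summed TPM at D7 was 28300, 24010 and 13500 in replicates 1, 2 and 3. Ckm, muscle creatine kinase, had 777, 574 and 14.1 TPM there, Myh3, embryonic myosin heavy chain, 2085, 1715 and 321, and Myog, myogenin, 561, 504 and 240. The part of these differences in the members' values was not tested.

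In myoblasts the most abundant members were TCA cycle genes. In C2C12 myoblasts Mdh2, which encodes mitochondrial malate dehydrogenase, had 322 ± 18.8 TPM (SD, n = 3), followed by Cs, citrate synthase, with 232 ± 11 TPM. In primary myoblasts the same 2 genes led, with 390 ± 62.3 TPM for Mdh2 and 245 ± 70.6 TPM for Cs. Within each cell type the ranges of Mdh2 and Cs over 3 libraries did not overlap at D0. In primary myotubes at D7 Acadl, a fatty acid oxidation gene, had the highest mean of all members, with 410 ± 91.4 TPM, and Mdh2 the next, with 384 ± 60.2 TPM, their ranges overlapping. At the low end stood Ppara, which encodes a lipid-sensing nuclear receptor, and Ucp3, an inner membrane protein of muscle mitochondria, both under 2 TPM in every myoblast library. The TPM of all 52 members together averaged 4375, 6095 and 6746 in primary cells at D0, D4 and D7. In C2C12 cells they averaged 3830 at D0, then 5795 in patterned, 5385 in unpatterned and 4687 in plastic cultures at D4, and 6119, 5584 and 5712 in the same order at D7.

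More members rose than fell between myoblasts and myotubes, in both cell types. Between D7 and D0, 29 of 52 members rose and 2 fell in primary cells on patterned gelatin, where 22.3% of all genes tested rose and 24.6% fell. In C2C12 cells on patterned gelatin 40 members rose and 10 fell, against 34.3% and 33.4% of all genes. The median log2 fold change of the members was 0.56 in primary cells and 0.71 in C2C12 cells, with medians of -0.02 and -0.03 over all genes tested. At D4 against D0 there were 25 members up and 2 down in primary cells, where 20.2% and 22.4% of all genes moved, and 36 up and 8 down in C2C12 cells on plastic, where 30.2% and 27.7% moved. On the log2(TPM + 1) scale limma called 25 up and 11 down in that plastic comparison. With primary replicate 3 left out of every group, an alternative chosen after seeing the data, the primary counts were higher, with 37 up and 6 down at D4 and 41 up and 6 down at D7. The share of all genes called under that setting is not given, so the higher counts are not read as particular to the members. Since the replicate numbers paired the primary libraries, a fit with the replicate number as a factor (the replicate block) is given beside the counts. With it 37 members rose and 6 fell at D7, against 29% and 31.7% of all genes, and 32 rose and 6 fell at D4, against 27.4% and 30.2%. Members that passed the test at D4 only with the block were Mpc1 (0.49), Mdh1 (0.66), Etfa (0.34), Acads (0.48), Acadvl (0.43), Eci1 (0.41) and Ogdh (0.38), which rose, and Idh1 (-0.75), Idh2 (-0.61), Pdk3 (-0.49) and Suclg2 (-0.40), which fell. Those at D7 are named with their roles. Summed TPM of 5 proliferation genes such as Mki67 fell over the same days, with means of 290, 47.0 and 25.7 in primary cells at D0, D4 and D7, and 1092 in C2C12 myoblasts against 72.2 to 120 in the C2C12 myotube groups. The summed TPM of smooth muscle and pericyte markers averaged 36.9, 5.63 and 2.65 in primary cells at D0, D4 and D7, with every myotube library below every myoblast library. That of fibroblast markers averaged 61.2 to 115 in the C2C12 myotube groups, against 21.9 in C2C12 myoblasts. The single marker Dcn, whose group means are given below, made up most of it in the C2C12 groups where the sum was lowest and highest. The part of these 3 lists in the changes of the members was not tested.

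**Figure D1:**
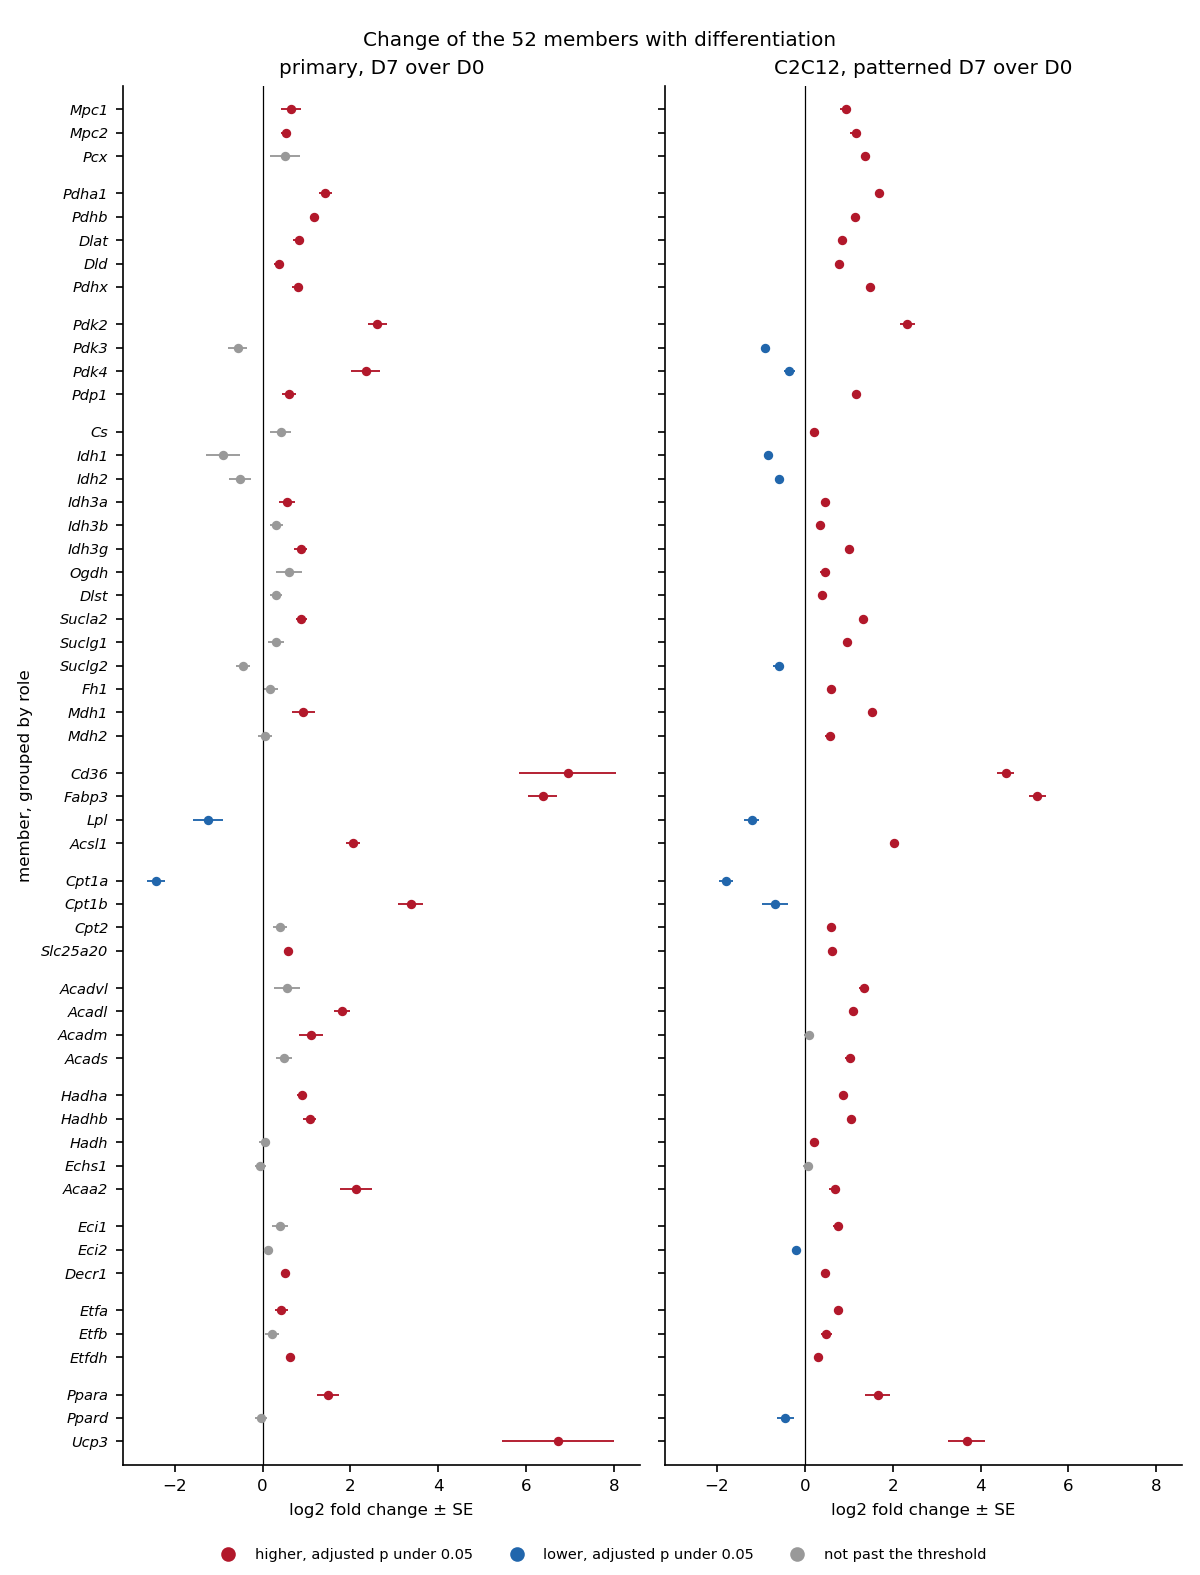
Log2 fold change with SE of the 52 members at D7 over D0, in primary cells (left) and in C2C12 cells on patterned gelatin (right), grouped by role from pyruvate entry at the top to lipid receptors at the bottom. Red points rose, blue points fell and grey points did not pass the threshold. Fabp3 and Cd36 lie farthest to the right in C2C12 cells, Cpt1a farthest to the left in both, and Pdk4 and Cpt1b lie on opposite sides of 0 in the 2 panels.

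Cd36 and Fabp3, genes of fatty acid uptake, were among the members with the largest rises in both cell types. Cd36, the membrane receptor that takes up long-chain fatty acids, was nearly silent in myoblasts and much higher in myotubes, though among the less abundant members there. Its levels in the 3 primary libraries were 0.778, 0.622 and 0.187 TPM at D0, 42.2, 73.3 and 9.81 TPM at D4 and 77.9, 91.5 and 9.54 TPM at D7. In C2C12 cells on patterned gelatin they were 0.879, 1.28 and 1.08 TPM at D0, 29.5, 29.6 and 28.4 TPM at D4 and 30.4, 23.0 and 20.6 TPM at D7. No myotube library of either cell type came near the myoblast range, and primary replicate 3 was the lowest of its group at every day. Cd36 rose by 6.94 ± 1.11 log2 units in primary cells (edgeR adjusted p = 0.00108) and by 4.57 ± 0.19 in C2C12 cells (edgeR adjusted p = 1.28e-13). Without primary replicate 3 the rise in primary cells was 7.09.

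Fabp3, the heart and muscle fatty acid binding protein that carries fatty acids through the cytosol, followed the same course. Primary cells had 5.59, 4.67 and 2.59 TPM at D0, 240, 309 and 199 TPM at D4 and 372, 412 and 232 TPM at D7. C2C12 cells had 5.32, 5.94 and 8.11 TPM at D0, 205, 200 and 200 TPM at D4 and 248, 270 and 167 TPM at D7 on patterned gelatin. The gene moved from among the least to among the 6 most abundant members in C2C12 myotubes on patterned gelatin, with a rise of 5.29 ± 0.19 there and of 6.37 ± 0.32 in primary cells (edgeR adjusted p = 2.01e-14 and 7.41e-06 in that order). Fabp3 shares its locus with the oppositely oriented Zcchc17, which reached 51.8 TPM, and whether counting used strand is not stated. The same limit holds for Acadvl with Dvl2 (up to 39.2 TPM), Pcx with Lrfn4 (36.1), Etfdh with 4930579G24Rik (17.7), Mdh1 with Wdpcp (17.3) and Echs1 with Paox (16.3), all on opposite strands, and reads may be shared between Acadl and the overlapping pseudogene Gm15793 (8.07) and between Mpc1 and Mpc1-ps (9.74).

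Acsl1, which activates long-chain fatty acids to acyl-CoA, rose by 2.05 ± 0.16 in primary and by 2.04 ± 0.10 in C2C12 cells, to 84.4 ± 16.9 TPM in primary and 31.8 ± 4.14 TPM in C2C12 myotubes at D7 (SD, n = 3). Lpl, the lipoprotein lipase that frees fatty acids from circulating triglyceride, was the member of this group that fell. At D7 it had 11, 13.1 and 18.1 TPM in primary cells, against 38.6, 30.9 and 31.8 TPM at D0, a change of -1.24 ± 0.34 (edgeR adjusted p = 0.016), and 7.08, 5.47 and 8.81 TPM in C2C12 cells, against 16.5, 15.1 and 12.5 TPM at D0, a change of -1.20 ± 0.17 (edgeR adjusted p = 4.12e-06). Ranges at D7 lay below those at D0 in both cell types, although the primary call was lost without D7 replicate 1 or without D7 replicate 2. Adipocytes, endothelial cells and macrophages also express Cd36 or Lpl. Of the 6 adipocyte markers Cfd was at 0 in every group, Adipoq, Plin1, Cidec and Lep did not exceed a group mean of 0.122 TPM, and Retn reached 2.98, the 6 together averaging 1.17 to 2.98 TPM over the 10 groups. The 6 endothelial markers together averaged 5.73 to 8.27 TPM, with Cdh5, Kdr and Emcn at or under 0.103 and Pecam1 and Vwf making up most of the rest, and the 6 macrophage and leukocyte markers 1.76 to 4.995 TPM, with Adgre1 at 0. In bulk RNA fewer cells of a type cannot be told apart from less RNA per cell.

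Ucp3 was detected only in traces in myoblasts, with 0.132, 0.0780 and 0 TPM in primary and 0, 0.222 and 0.140 TPM in C2C12 libraries at D0, from 0 to 6 estimated counts each. At D7 it had 7.35, 13.4 and 1.67 TPM in primary and 1.10, 1.45 and 1.77 TPM in C2C12 myotubes on patterned gelatin. Every myotube library was above every myoblast library, and primary replicates 1 and 2 stood above all C2C12 myotubes while replicate 3 lay within their range. The fitted rises of 6.72 ± 1.28 in primary and 3.69 ± 0.42 in C2C12 cells rest on those few D0 counts (edgeR adjusted p = 0.00264 in primary and 2.75e-07 in C2C12 cells). Ppara rose by 1.48 ± 0.25 in primary and by 1.66 ± 0.28 in C2C12 cells, to 5.88 ± 2.00 TPM and 1.34 ± 0.431 TPM in that order. Ppard, its relative that is broadly expressed, had 14.0 ± 3.24 TPM in primary and 18.4 ± 2.73 TPM in C2C12 cells at D7, with changes from D0 of -0.04, which did not pass the test, and -0.44, which did and was lost without D7 replicate 1 or 3 or D0 replicate 2 or 3, each left out alone.

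**Figure D2:**
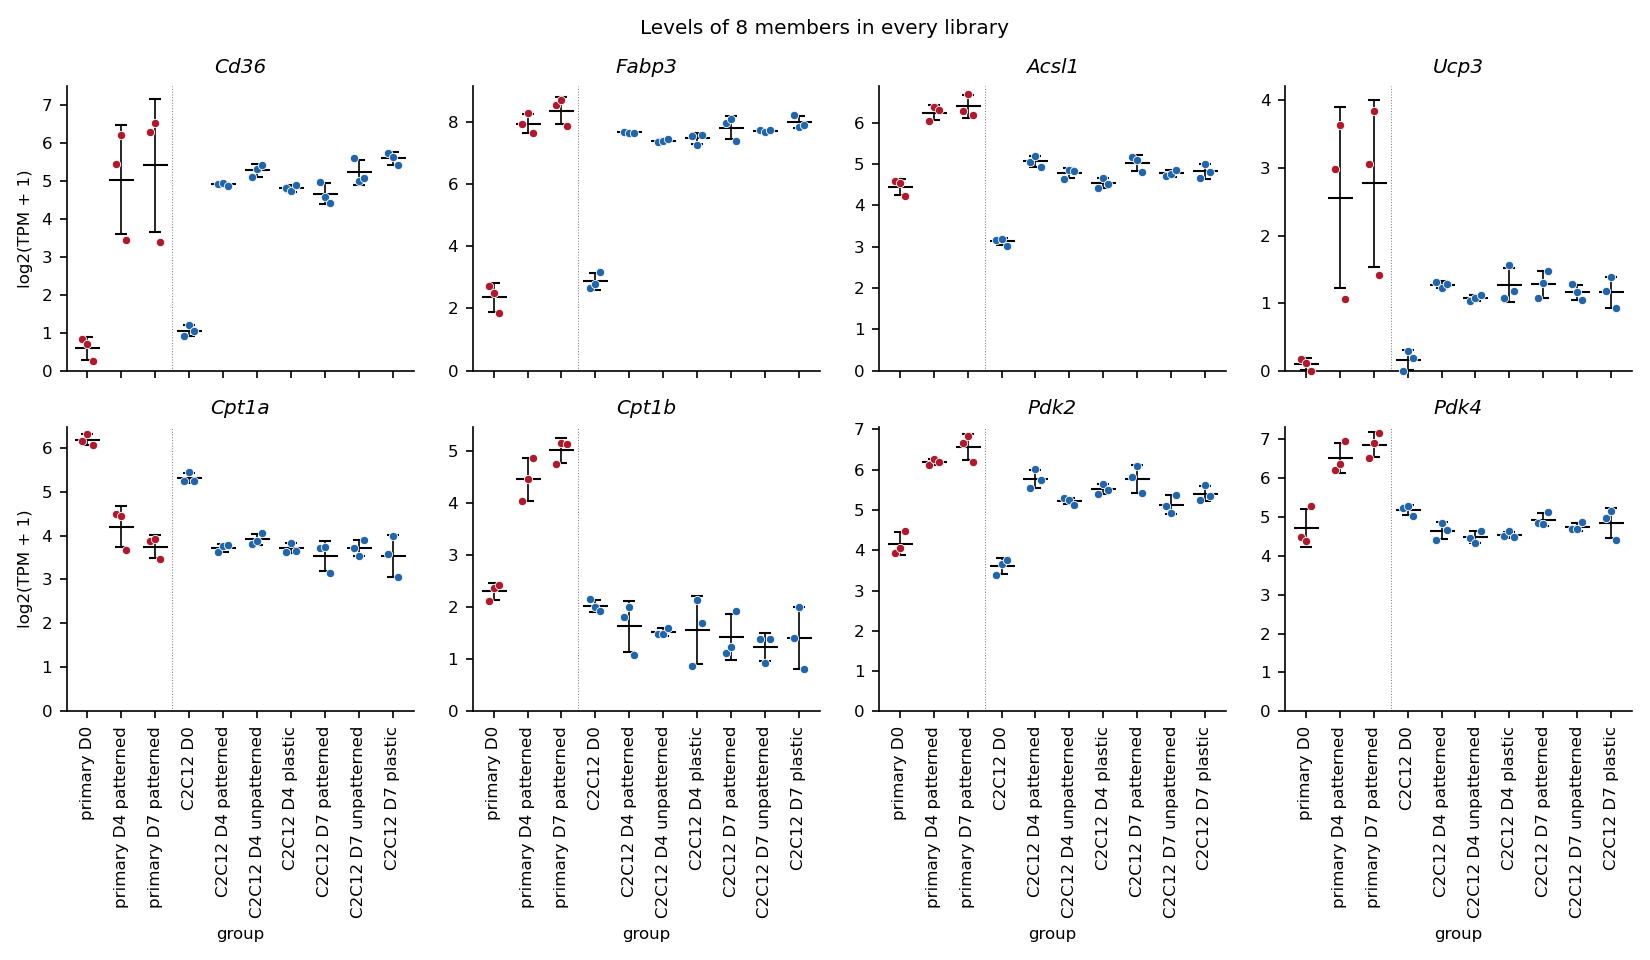
Levels of 8 members in every library as log2(TPM + 1), with primary groups in red to the left of the dotted line and C2C12 groups in blue to its right. Points are libraries, and black bars give the mean with SD of 3. Cd36, Fabp3, Acsl1, Ucp3 and Pdk2 are higher in myotubes than in myoblasts of both cell types, Cpt1a is lower, and Cpt1b and Pdk4 are high only in the primary myotube groups.

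In the carnitine shuttle the levels of the 2 CPT1 isoforms crossed in primary cells and not in C2C12 cells. CPT1 attaches fatty acyl groups to carnitine and sets the pace of their entry into mitochondria, with Cpt1a as the isoform known from liver and Cpt1b as the isoform known from muscle. Cpt1a had 70.6, 78.6 and 66.1 TPM at D0, 21.5, 20.7 and 11.7 TPM at D4 and 13.6, 14.1 and 9.97 TPM at D7 in primary cells, and 36.8, 42.3 and 36.9 TPM at D0, 11.3, 12.6 and 12.7 TPM at D4 and 12.1, 12.4 and 7.86 TPM at D7 in C2C12 cells on patterned gelatin. It fell in both, by 2.43 ± 0.21 log2 units in primary and by 1.78 ± 0.16 in C2C12 cells between D7 and D0 (edgeR adjusted p = 4.89e-05 and 9.39e-09 in that order). Cpt1b had 3.33, 4.18 and 4.35 TPM at D0, 15.4, 21 and 28.2 TPM at D4 and 25.7, 34.5 and 34.2 TPM at D7 in primary cells. In C2C12 cells it had 3.46, 3.02 and 2.78 TPM at D0, 2.5, 3.03 and 1.12 TPM at D4 and 1.19, 1.34 and 2.79 TPM at D7 on patterned gelatin.

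Thus Cpt1b was above its D0 range in all primary myotube libraries and did not exceed 3.46 TPM in any C2C12 library. Its change between D7 and D0 was 3.37 ± 0.29 in primary cells (edgeR adjusted p = 4.55e-05) and -0.67 ± 0.29 in C2C12 cells (edgeR adjusted p = 0.0487). The C2C12 fall was lost with the replicate block, on the log2(TPM + 1) scale and in 5 of 6 fits that left out 1 library, all but the one without D7 replicate 3. The ratio of Cpt1b to Cpt1a in TPM was 0.0472, 0.0532 and 0.0658 in the primary libraries at D0, 0.715, 1.01 and 2.41 at D4, and 1.89, 2.45 and 3.43 at D7. It averaged 0.0802 to 0.187 in the 7 C2C12 groups, and no C2C12 library reached 1. Cpt1b (chr15:89416405-89425863 on GRCm38, reverse strand) overlaps Gm44502 on the same strand, which did not exceed 0.525 TPM. Of the other members of the shuttle, Slc25a20, the carrier that exchanges acylcarnitine for carnitine, rose by 0.58 ± 0.09 in primary and 0.63 ± 0.10 in C2C12 cells. Cpt2, which returns the acyl group to CoA inside the mitochondrion, rose by 0.59 ± 0.07 in C2C12 cells and had a change of 0.39 ± 0.16 in primary cells that did not pass the test, while with the block it passed (0.39 ± 0.09, adjusted p = 0.00735).

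Of the enzymes for long chains, Acadl, Hadha and Hadhb rose in both cell types. Acadl, the long-chain acyl-CoA dehydrogenase, had 414, 500 and 317 TPM in primary myotubes at D7, against 138, 136 and 104 TPM at D0, and 268, 281 and 224 TPM in C2C12 myotubes on patterned gelatin, against 131, 138 and 128 TPM at D0. The ranges were separate in both cell types, and the rises were 1.80 ± 0.18 and 1.09 ± 0.07 (edgeR adjusted p = 8.82e-05 and 2.92e-11 in that order). Hadha and Hadhb, the subunits of the trifunctional protein, rose by 0.90 and 1.07 in primary cells and by 0.88 and 1.06 in C2C12 cells. The main Hadhb transcript had 91.3, 121 and 43.9 TPM in C2C12 cells on patterned gelatin at D7, against 60.1, 55.3 and 45.1 TPM at D0. Another Hadhb transcript had 40.7, 31.7 and 187 TPM there at D7, so that in replicate 3 the rise did not come from the main transcript. Acadvl, for very long chains, rose by 1.34 ± 0.11 in C2C12 cells, while its change of 0.56 ± 0.29 in primary cells did not pass the test and with the block did (0.62 ± 0.13, adjusted p = 0.00409).

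Of the genes for shorter chains and the last step, Acadm, Acads and Acaa2 had changes that differed between the cell types by edgeR's test of the difference itself. Acadm, the medium-chain dehydrogenase, rose in primary cells, with 105, 105 and 47.9 TPM at D7 against 40.8, 41.3 and 45.4 TPM at D0 (1.10 ± 0.27 log2 units, edgeR adjusted p = 0.00924). It had 96.1, 92.8 and 109 TPM at D7 on patterned gelatin, against 105, 118 and 105 TPM at D0, in C2C12 cells, where it did not pass the test (0.09 ± 0.10). In primary replicate 3 the D7 value barely exceeded the D0 range, and without that replicate in any group the rise was 1.53. Acaa2, the mitochondrial thiolase of the last step, had 155, 139 and 140 TPM in primary cells at D7, against 22.8, 23.0 and 57.4 TPM at D0, with replicate 3 well above the others at D0. Its rise was 2.13 ± 0.37 in primary and 0.68 ± 0.13 in C2C12 cells, which already had 97.0 ± 9.24 TPM at D0. Acads, the short-chain dehydrogenase, rose by 1.03 ± 0.12 in C2C12 cells and had 0.48 ± 0.18 in primary cells, just short of the threshold (edgeR adjusted p = 0.0511) and past it with the block (0.49 ± 0.17, adjusted p = 0.0369).

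Among the remaining steps, Hadh, the short-chain hydroxyacyl-CoA dehydrogenase, had changes of 0.05 in primary cells, which did not pass the test, and 0.22 in C2C12 cells, which did. Echs1, the enoyl-CoA hydratase, was the one member that passed the test in neither cell type between D7 and D0. Of the enzymes that handle unsaturated fatty acids, Decr1 rose in both (0.51 in primary, 0.47 in C2C12), Eci1 rose by 0.76 in C2C12 cells, and Eci2 fell there by 0.19 log2 units. In primary cells Eci1 passed the test with the block alone (0.42 ± 0.14, adjusted p = 0.0282). The subunits of the electron transfer flavoprotein and its dehydrogenase, Etfa, Etfb and Etfdh, all rose in C2C12 cells by 0.30 to 0.75, and in primary cells Etfa (0.43) and Etfdh (0.63) did.

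All 5 genes of the pyruvate dehydrogenase complex rose in both cell types, at D4 and at D7. Here C2C12 cells were compared with D0 on plastic at D4 and on patterned gelatin at D7. Pdha1, which encodes the regulated E1 alpha subunit, led them. It had 376, 387 and 267 TPM in primary myotubes at D7, against 137, 132 and 142 TPM at D0, and 477, 455 and 422 TPM in C2C12 myotubes on patterned gelatin, against 157, 162 and 136 TPM at D0. The ranges were far apart, with rises of 1.43 ± 0.15 in primary and 1.68 ± 0.07 in C2C12 cells (edgeR adjusted p = 0.000131 and 2.29e-13 in that order). Pdhb (E1 beta), Pdhx (the E3 binding protein), Dlat (E2) and Dld (E3) rose by 0.38 to 1.17 in primary and by 0.79 to 1.48 in C2C12 cells. The Dld call in primary cells was lost without replicate 1 or 2 of D7 or of D0, each left out alone.

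Of the regulators of the complex, Pdk2 rose in both cell types and Pdk4 in primary cells. Pdk2, a kinase that inhibits pyruvate dehydrogenase, rose in both, with 99.9, 113 and 72.5 TPM in primary cells at D7, against 14.3, 15.6 and 21.3 TPM at D0, and 55.0, 67.4 and 41.5 TPM in C2C12 cells, against 9.42, 11.6 and 12.6 TPM at D0. The rises were 2.61 ± 0.22 in primary and 2.33 ± 0.17 in C2C12 cells. Pdk4, the kinase induced in muscle by fasting, had 21.1, 19.9 and 38.0 TPM at D0, 73.2, 81.3 and 122 TPM at D4 and 91.0, 118 and 141 TPM at D7 in primary cells. In C2C12 cells it had 36.1, 38.1 and 31.7 TPM at D0, 20.2, 27.8 and 24.4 TPM at D4 and 27.6, 27.0 and 33.5 TPM at D7 on patterned gelatin.

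Every primary myotube library therefore had 73.2 TPM of Pdk4 or more, and no C2C12 library had more than 38.1. Pdk4 rose by 2.35 ± 0.33 in primary cells (edgeR adjusted p = 0.000586), and fell by 0.35 ± 0.13 in C2C12 cells (edgeR adjusted p = 0.0252), a call that was lost on the TPM scale and without D7 replicate 1 or 3 or D0 replicate 1 or 2, each left out alone. Pdk3 fell in C2C12 cells by 0.90 ± 0.08 and had -0.57 ± 0.22 in primary cells, which did not pass the test and with the block did (-0.53 ± 0.18, adjusted p = 0.0336). Pdp1, the phosphatase that reactivates the complex, rose by 0.60 ± 0.16 in primary and 1.16 ± 0.09 in C2C12 cells.

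For Cd36 and Ucp3, which were low in myoblasts, and Pdk4, which differed between the cell types, all chosen after their values were seen, the bases before the RefSeq start on GRCm38.p6 are shown with their matches to the binding motifs of nuclear receptors and of myogenic factors. Capitals mark AGGTCA on either strand (TGACCT on the other), the core motif of nuclear receptors, and CAGCTG, an E-box of myogenic factors, which share bases near the end of the Ucp3 window. The Cd36 window is chr5:17835897-17836146 on the reverse strand, the Ucp3 window chr7:100472741-100472989 on the forward strand, and the Pdk4 window chr6:5496310-5496528 on the reverse strand, which end 0, 1 and 31 bases before the RefSeq start. The Cd36 start lies inside the gene as GENCODE annotates it (chr5:17781690-17888801), at an internal start, and other annotated transcripts begin farther upstream.
Cd36 promoter: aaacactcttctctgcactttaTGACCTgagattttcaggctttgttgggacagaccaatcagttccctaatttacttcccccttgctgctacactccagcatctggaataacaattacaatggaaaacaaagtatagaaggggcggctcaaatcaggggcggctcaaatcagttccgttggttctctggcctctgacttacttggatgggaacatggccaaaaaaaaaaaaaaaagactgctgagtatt
Ucp3 promoter: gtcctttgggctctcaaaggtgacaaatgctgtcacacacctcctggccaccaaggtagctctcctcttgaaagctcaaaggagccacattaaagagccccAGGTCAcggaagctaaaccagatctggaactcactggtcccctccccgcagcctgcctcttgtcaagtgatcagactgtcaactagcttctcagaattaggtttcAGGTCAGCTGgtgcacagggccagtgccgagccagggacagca
Pdk4 promoter: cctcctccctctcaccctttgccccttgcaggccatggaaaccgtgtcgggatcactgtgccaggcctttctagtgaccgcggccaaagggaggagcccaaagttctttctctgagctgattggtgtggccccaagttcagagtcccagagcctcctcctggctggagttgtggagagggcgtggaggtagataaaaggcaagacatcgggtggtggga
The Cd36 window holds 1 core motif, 228 bases before the start. The Ucp3 window holds 2, at 149 and 44 bases, and 1 E-box at 40 bases. The Pdk4 window holds neither. Over the 250 bases before the start of the 46 members with a RefSeq entry, the core motif was found in 9 (19.6%), against 15.8% of 27025 genes, and the E-box in 6 (13%), against 14.7%. CTA and TAG with any 4 bases between them, a looser pattern than the MEF2 site with only A or T there, were found in 1 member. It was Mpc2 (2.17%, against 3.7% of genes), where the match was CTAGCTCTAG, with G and C among the 4 bases. The longer motifs TNAAGGTCA, of estrogen-related receptors, and a direct repeat of AGGNCA with 1 base between the copies, of PPAR with RXR, were found in no member on either strand, against 1.3% and 0.4% of genes.

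The TCA cycle itself changed in parts. In primary cells 4 of 14 genes rose and none fell between D7 and D0, against 22.3% and 24.6% of all genes, and with the block 8 rose and 3 fell. In C2C12 cells 11 rose and 3 fell, against 34.3% and 33.4% of all genes. The 8 in primary cells included Ogdh (0.65), Cs (0.46), Idh3b (0.33) and Suclg1 (0.33), with adjusted p of 0.00218, 0.0207, 0.028 and 0.0408 in that order. Sucla2, the ATP-forming subunit of succinyl-CoA ligase, rose by 0.88 ± 0.12 in primary and 1.32 ± 0.09 in C2C12 cells. Mdh1, the cytosolic malate dehydrogenase of the malate-aspartate shuttle, rose by 0.93 ± 0.26 and 1.54 ± 0.10, to 340 ± 27.6 TPM in primary and 336 ± 8.23 TPM in C2C12 myotubes. Idh3g and Idh3a, subunits of the NAD-dependent isocitrate dehydrogenase of the cycle, rose by 0.87 and 0.56 in primary and by 1.00 and 0.46 in C2C12 cells. The other subunit, Idh3b, which overlaps the highly expressed Nop56 on the opposite strand, rose by 0.34 in C2C12 cells.

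The NADP-dependent isocitrate dehydrogenases went the other way in C2C12 cells. Idh1, the cytosolic enzyme, had 89.8, 85.2 and 63.4 TPM on patterned gelatin at D7, against 135, 153 and 141 TPM at D0, and fell by 0.84 ± 0.08 log2 units (edgeR adjusted p = 2.18e-08). Idh2, the mitochondrial enzyme, had 105, 108 and 108 TPM, against 161, 192 and 172 TPM, and fell by 0.59 ± 0.08 (edgeR adjusted p = 3.96e-06). The ranges did not overlap for either gene. In primary cells the changes were -0.90 ± 0.38 for Idh1 and -0.51 ± 0.25 for Idh2 and did not pass the test, while with the block Idh1 (-0.99 ± 0.20, adjusted p = 0.00376) and Idh2 (-0.55 ± 0.14, adjusted p = 0.00935) fell. Suclg2, the GTP-forming subunit of succinyl-CoA ligase, fell by 0.59 ± 0.12 in C2C12 cells and had -0.44 ± 0.16 in primary cells, where the call was missed (edgeR adjusted p = 0.0546) and was made with the block (-0.43 ± 0.08, adjusted p = 0.00197). Suclg1, the subunit shared by both forms, and Fh1, fumarase, rose by 0.96 and 0.60 in C2C12 cells. Ogdh and Dlst, of the 2-oxoglutarate dehydrogenase complex, rose there by 0.46 and 0.39, as did Mdh2 by 0.57 and Cs by 0.21, the last a call lost without D7 replicate 2 or D0 replicate 1 or 2, each left out alone.

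The pyruvate carrier rose in both cell types and Pcx in C2C12 cells. Mpc1 and Mpc2, the subunits of the mitochondrial pyruvate carrier, rose by 0.65 and 0.53 in primary and by 0.93 and 1.16 in C2C12 cells. Pcx, pyruvate carboxylase, which refills the cycle with oxaloacetate, rose in C2C12 cells, with 40.1, 41.9 and 37.3 TPM at D7 against 14.4, 19.0 and 14.7 TPM at D0 (1.38 ± 0.10). In primary cells Pcx had 13.8, 16.4 and 27.9 TPM at D7, against 17.3, 17.7 and 9.27 TPM at D0, and its change of 0.51 ± 0.34 did not pass the test, the ranges overlapping.

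The test of the difference between the cell types in the change between D0 and D7 on patterned gelatin called 18 members, 9 with a more positive change in primary cells and 9 with a more negative one, where 14% and 18.1% of all genes did so. Both counts were near those shares. On the log2(TPM + 1) scale limma called 7 and 11, and a fit of the 4 groups alone called 6 members. The differences were 4.06 ± 0.40 for Cpt1b (edgeR adjusted p = 6.48e-08), 2.70 ± 0.32 for Pdk4 (edgeR adjusted p = 1.01e-06), 2.40 ± 0.89 for Cd36 (edgeR adjusted p = 0.0415), 1.46 ± 0.35 for Acaa2, 1.11 ± 0.33 for Fabp3 and 1.03 ± 0.26 for Acadm. The lowest were Pcx (-0.86 ± 0.30), Acadvl (-0.77 ± 0.28), Pdhx (-0.66 ± 0.14), Suclg1 (-0.64 ± 0.19), Mpc2 (-0.62 ± 0.18) and Pdp1 (-0.54 ± 0.17). The Cd36 difference lost its call on the TPM scale and in 9 of 12 fits that left out 1 library, holding without C2C12 D7 replicate 1, primary D7 replicate 3 or primary D0 replicate 1. With primary replicate 3 left out of every group, 14 of the 18 kept their call, while Mpc2, Sucla2, Mdh2 and Acads lost it.

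The myoblasts of the 2 sources already differed before differentiation. At D0, 27 members were higher and 4 lower in primary than in C2C12 myoblasts, where 29.6% of all genes were higher and 27.9% lower. Members higher in primary myoblasts included Ppara (2.04 ± 0.28), Acsl1 (1.59 ± 0.13), Lpl (1.5 ± 0.24), Pdhx (1.35 ± 0.10), Etfb (1.23 ± 0.14) and Suclg1 (1.19 ± 0.14). Those lower were Idh1 (-1.66 ± 0.24), Acaa2 (-1.34 ± 0.25), Acadm (-1.09 ± 0.18) and Ppard (-0.68 ± 0.18). Idh1 had 51.2, 52.2 and 38.2 TPM in primary against 135, 153 and 141 TPM in C2C12 myoblasts, with no overlap, and edgeR gave an adjusted p of 2.34e-06. Myogenic markers differed between these myoblasts too. Myog had 719, 710 and 255 TPM in primary and 137, 168 and 189 TPM in C2C12 libraries, and Myod1 averaged 856 TPM in primary and 170 TPM in C2C12 myoblasts. Myotube markers together averaged 2308 and 1115 TPM and proliferation markers 290 and 1092 TPM in primary and C2C12 myoblasts in that order. Their part in the D0 differences was not tested.

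In myotubes on patterned gelatin at D7, 27 members were higher and 5 lower in primary than in C2C12 cells, where 25% of all genes were higher and 26.4% lower, and limma on the TPM scale called 22 and 9. At D4 the counts were 24 and 4, against 25.7% and 25% of all genes, and 16 and 9 on the TPM scale. The highest at D7 were Cpt1b (4.92 ± 0.31), Ucp3 (2.64 ± 0.64), Pdk4 (2.44 ± 0.23), Ppara (1.89 ± 0.26), Acsl1 (1.61 ± 0.12) and Lpl (1.47 ± 0.25). For Cpt1b the primary libraries had 25.7, 34.5 and 34.2 TPM and the C2C12 libraries 1.19, 1.34 and 2.79 TPM, for Pdk4 91.0, 118 and 141 TPM against 27.6, 27.0 and 33.5 TPM, and for both the groups lay far apart (edgeR adjusted p = 3.44e-12 for Cpt1b and 6.6e-09 for Pdk4). Members lower in primary myotubes were Idh1 (-1.69 ± 0.24), Pcx (-0.89 ± 0.21), Mpc2 (-0.61 ± 0.13), Acads (-0.36 ± 0.14) and Echs1 (-0.31 ± 0.11). Idh1 was thus lower in primary cells by nearly the same amount at all 3 days (-1.66, -1.69 and -1.69 at D0, D4 and D7). Beside these differences, the fibroblast marker Dcn had group means of 0.450 to 1.07 TPM in primary and 18.0 to 111 TPM in C2C12 cells, and its part in them was not tested.

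Between D7 and D4 no member and no gene passed edgeR's test in primary cells (0% of 14352 genes), with 1 member under 0.05 before adjustment, while DESeq2 called 0 members and 58 genes. With the block no gene was called and 9 members were under 0.05 before adjustment. With primary replicate 3 left out of every group 0 members and 124 genes were called, and 22 members were under 0.05 before adjustment. No share of all genes is given for the counts before adjustment. In C2C12 cells on plastic 8 members rose and 1 fell, against 6.47% and 8.37% of all genes. Cd36 rose by 0.59 ± 0.15, with 52.3, 48.6 and 41.7 TPM at D7 against 26.9, 25.4 and 28.8 TPM at D4, and Pcx by 0.43 ± 0.09, while Idh2 fell by 0.53 ± 0.08. No Cd36 value at D7 was within the D4 range, but the call was lost without D4 replicate 2 or D7 replicate 1. The number of members called was 3 without D4 replicate 2, 4 without D7 replicate 1 or 3, 5 without D4 replicate 1 or 3 and 14 without D7 replicate 2, and 26 by limma on log2(TPM + 1), the median of all genes then lying at 0.16.

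On patterned gelatin 6 members rose and 4 fell between D7 and D4, against 11.3% and 9.03% of all genes, and limma called 8 and 1 on the TPM scale. Pcx (0.60 ± 0.09), Acadvl (0.55 ± 0.11) and Mpc2 (0.47 ± 0.13) were among those that rose, and Idh3a (-0.52 ± 0.09) and Idh1 (-0.28 ± 0.08) among those that fell. On unpatterned gelatin Pcx rose (0.54 ± 0.09) and Idh3a fell (-0.38 ± 0.09), 1 member each way, against 1.62% and 1.31% of all genes. Pcx was called higher at D7 on all 3 substrates.

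Substrates were compared in C2C12 myotubes. Patterned gelatin differs from plastic in both hydrogel and grooves, and only patterned against unpatterned gelatin sets the grooves apart. At D4, 5 members were higher on patterned gelatin than on plastic and none was lower, against 2.1% and 1.46% of all genes. They were Dlat (0.51 ± 0.06), Idh3a (0.50 ± 0.09), Acsl1 (0.44 ± 0.09), Pdha1 (0.29 ± 0.07) and Acadl (0.24 ± 0.07). Idh3a had 154, 158 and 140 TPM in patterned, 126, 140 and 140 TPM in unpatterned and 89.4, 100 and 98.2 TPM in plastic cultures. Both gelatin groups lay wholly above plastic (edgeR adjusted p = 0.00441 for patterned and edgeR adjusted p = 0.0162 for unpatterned gelatin against plastic). Pdha1 had 420, 426 and 397 TPM in patterned, 355, 378 and 365 TPM in unpatterned and 309, 304 and 311 TPM in plastic cultures, 3 ranges without overlap, of which only the outer pair passed the test (edgeR adjusted p = 0.0305). The count was 2 or 3 when 1 library was left out, with Dlat and Idh3a held in all 6 such fits, and 16 with only the 2 groups in the fit. The Dlat call was not made on the TPM scale.

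On unpatterned gelatin at D4, 3 members were higher than on plastic, Idh3a (0.37 ± 0.09), Dlat (0.26 ± 0.06) and Acadl (0.24 ± 0.07), and Ppard was lower (-0.78 ± 0.19), where 4.02% and 3.87% of all genes differed. None of the 4 held in all 6 fits that left out 1 library, and no member was called without unpatterned replicate 2 or 3. With only the 2 groups in the fit, 15 members and 3223 genes were called. Between patterned and unpatterned gelatin no member passed edgeR's test at D4, where 0.00674% of all genes did, with 8 members at an unadjusted p under 0.05 and 2 called by DESeq2. For the counts at an unadjusted p and by DESeq2 no share of all genes is given. The comparisons against plastic share the plastic libraries.

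At D7, 17 members were higher and 3 lower on patterned gelatin than on plastic, where 12.9% and 10.9% of all genes differed, and limma on the TPM scale called 10 and 5. Besides those named here, Hadh, Echs1, Eci1 and Etfb were higher, by 0.29 to 0.39. All 4 acyl-CoA dehydrogenases were among the higher ones, Acads (0.63 ± 0.12), Acadvl (0.43 ± 0.11), Acadm (0.32 ± 0.10) and Acadl (0.28 ± 0.07). Acads had 82.2, 84.9 and 93.0 TPM in patterned, 58.1, 81.2 and 73.1 TPM in unpatterned and 58.0, 66.2 and 57.8 TPM in plastic cultures. All patterned libraries were above all others, and the unpatterned range overlapped plastic (edgeR adjusted p = 0.00231 for patterned gelatin against plastic).

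Of the TCA cycle 5 genes were higher, led by Mdh2, with 430, 451 and 532 TPM in patterned, 298, 406 and 373 TPM in unpatterned and 296, 345 and 362 TPM in plastic cultures (0.53 ± 0.11, edgeR adjusted p = 0.00506). Again the patterned libraries were the 3 highest. Idh2 (0.37 ± 0.08), Cs (0.26 ± 0.08), Dlst (0.23 ± 0.07) and Fh1 (0.22 ± 0.08) followed. Etfa had 168, 163 and 222 TPM on patterned gelatin, against 142, 148 and 142 TPM on plastic (0.41 ± 0.09), its highest value coming from replicate 3, the shallowest library of the series. Pdk2 (0.47 ± 0.16) and Mpc2 (0.45 ± 0.13) were also higher. Of the pyruvate dehydrogenase complex Dlat alone was called (0.28 ± 0.06). Its summed TPM were 123, 131 and 65.5 on patterned gelatin, against 106, 120 and 111 on plastic, with patterned replicate 3 the lowest. The direction by counts was thus not seen in the mean of the summed TPM. The main Dlat transcript did show it, with 62.64, 67.87 and 58.52 TPM on patterned gelatin, against 47.42, 56.03 and 51.96 TPM on plastic. Another Dlat transcript had 39.1, 55.29 and 2.228 TPM on patterned gelatin, against 41.53, 40.13 and 42.8 TPM on plastic.

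**Figure D3:**
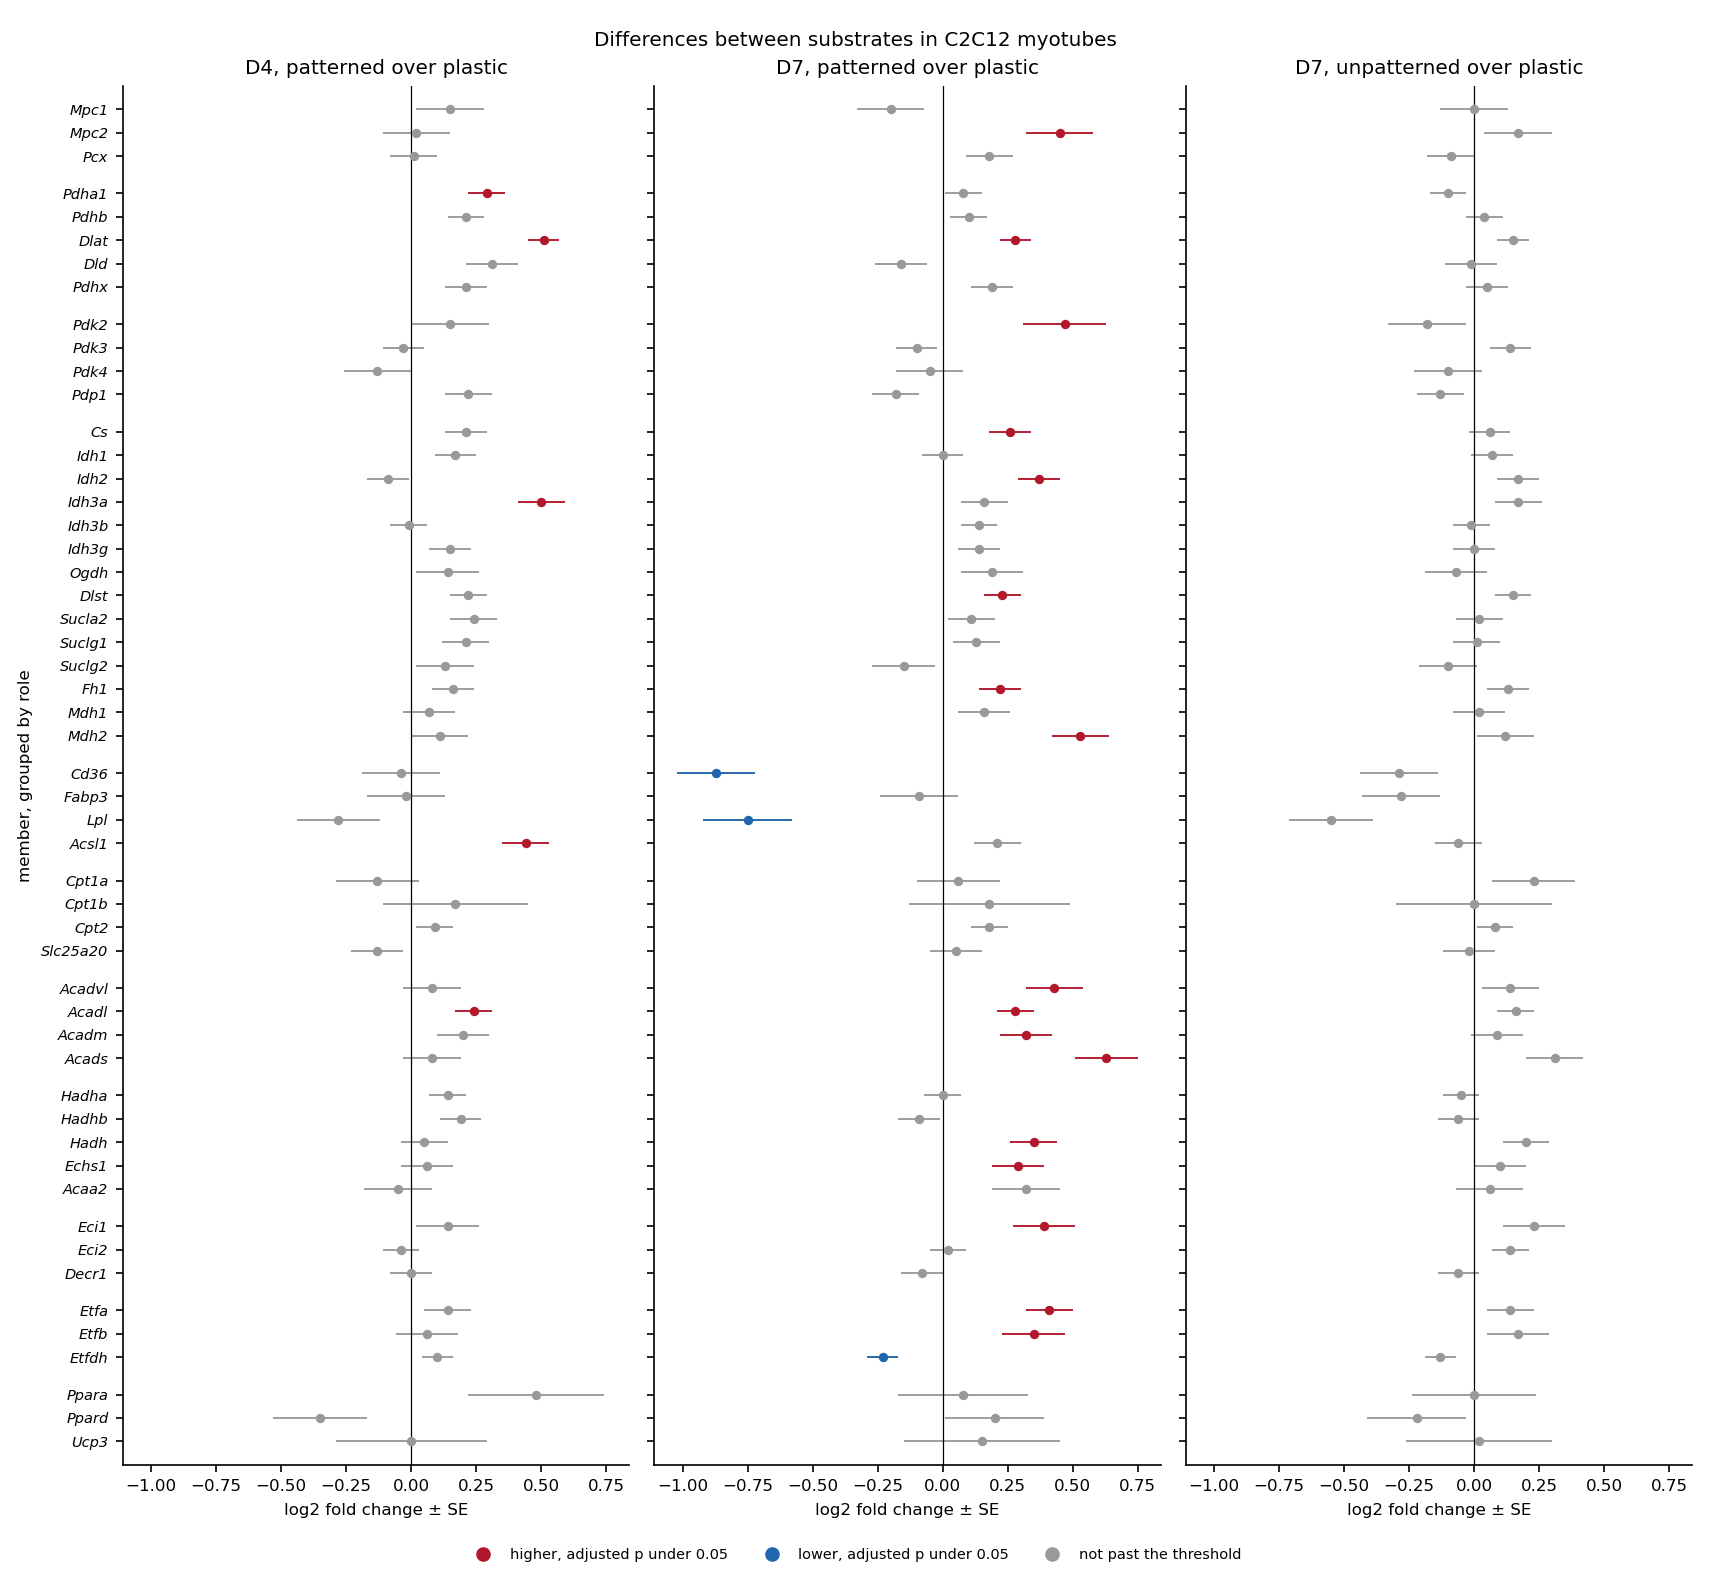
Log2 fold change with SE of the 52 members in C2C12 myotubes for patterned gelatin over plastic at D4 (left) and D7 (middle) and for unpatterned gelatin over plastic at D7 (right). Red points were higher, blue points lower and grey points not past the threshold, and the numbers of red and blue points are 5 and 0, 17 and 3, and 0 and 0.

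Cd36 and Lpl, genes of fatty acid uptake, were lower on patterned gelatin at D7. Cd36 had 30.4, 23.0 and 20.6 TPM in patterned, 47.6, 30.9 and 33.0 TPM in unpatterned and 52.3, 48.6 and 41.7 TPM in plastic cultures, and was lower on patterned gelatin than on plastic by 0.87 ± 0.15 log2 units (edgeR adjusted p = 0.00163). Lpl had 7.08, 5.47 and 8.81 TPM in patterned, 9.58, 6.94 and 7.09 TPM in unpatterned and 12, 15.2 and 10.1 TPM in plastic cultures, lower by 0.75 ± 0.17 (edgeR adjusted p = 0.00696). For both genes the patterned and plastic libraries did not overlap, while the patterned and unpatterned ranges of Lpl did. Etfdh was the third, lower by 0.23 ± 0.06. Fabp3 and Acsl1, the other genes of uptake and activation, had -0.09 ± 0.15 and 0.21 ± 0.09 and did not pass the test.

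The D7 calls depended on the spread the fit assumes. The C2C12 groups differed in spread, with a biological coefficient of variation of 0.204 on patterned gelatin and 0.133 on plastic at D7 against 0.0598 to 0.0772 at D4, and the test shares one estimate per gene over 21 libraries. A fit of the 2 groups alone called no member and 21 genes. When 1 library was left out, 12 to 23 members were called (12 when it was plastic replicate 1, and 13 each for plastic replicate 2 and patterned replicate 3), and 8 members held in all 6 such fits: Acads, Mdh2, Idh2, Etfa, Acadl, Dlat, Cd36 and Lpl. With the replicate block, Fh1 and Etfb lost their call. The D4 calls also changed with the groups in the fit. Patterned gelatin and plastic at D4 fitted alone gave 16 members and 2413 genes.

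Patterned against unpatterned gelatin at D7 gave no member past edgeR's test, where 0.397% of all genes were higher and 0.148% lower. At an unadjusted p under 0.05 there were 17 members, and 3 were called by DESeq2. The shares of all genes at these thresholds, here and for unpatterned gelatin against plastic, are not given. Such counts are therefore not read as results about the members. Cd36 (-0.58 ± 0.15, edgeR adjusted p = 0.0771) and Mdh2 (0.41 ± 0.11, edgeR adjusted p = 0.0931) were near the threshold. Unpatterned gelatin against plastic at D7 also gave 0 members by edgeR, with 6 at an unadjusted p under 0.05 and 1 called by DESeq2, where 2.49% and 0.977% of all genes differed. The unpatterned values of Acads, Mdh2, Etfa and Acadl had means between those of patterned gelatin and plastic.

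**Figure D4:**
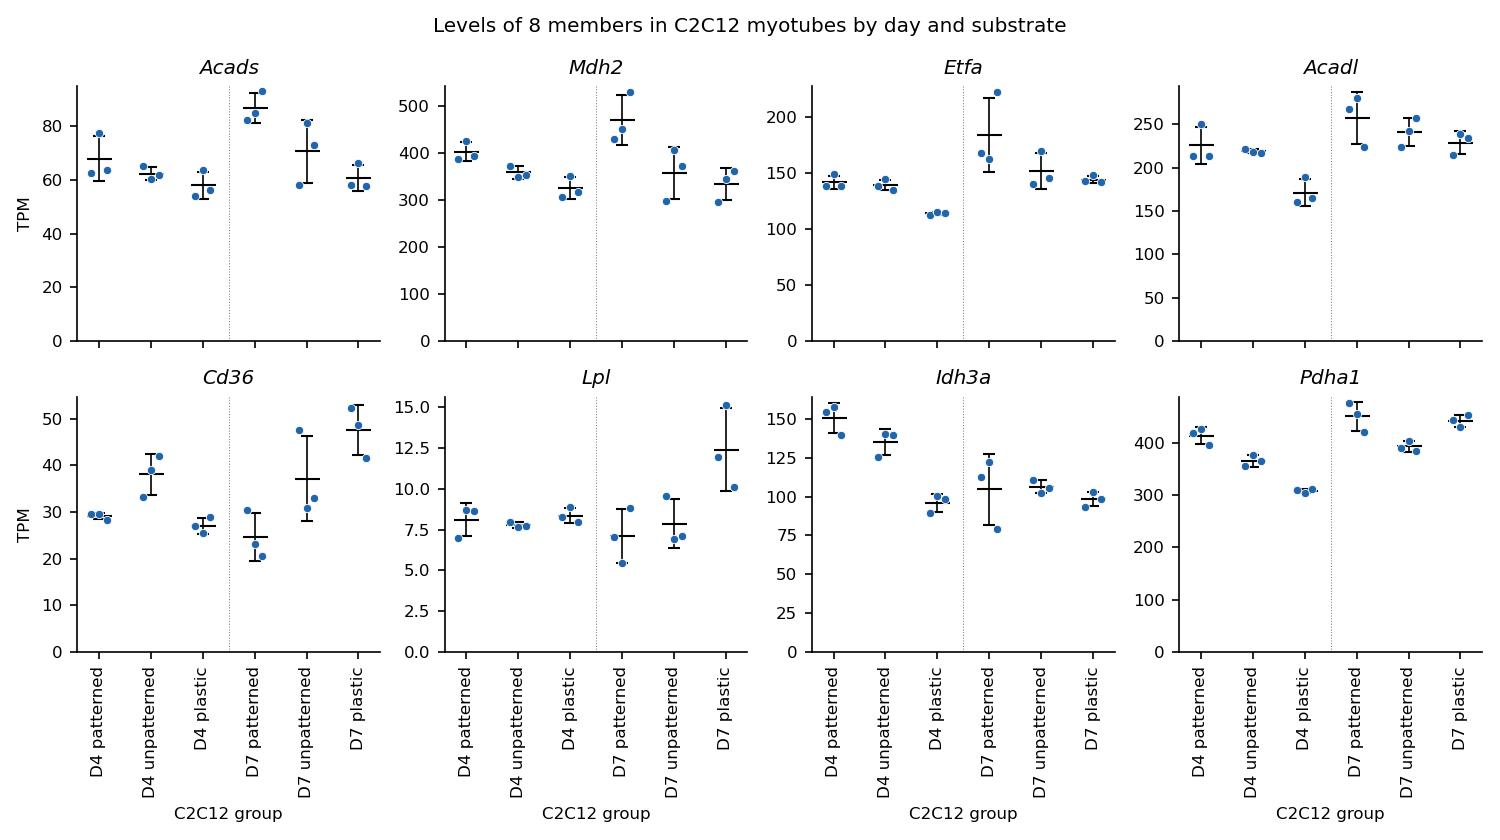
TPM of 8 members in C2C12 myotubes, with D4 left and D7 right of the dotted line and patterned gelatin, unpatterned gelatin and plastic in that order within each day. Points are libraries, and black bars give the mean with SD of 3. At D4 Idh3a and Pdha1 are higher on gelatin than on plastic, and at D7 Acads and Mdh2 are highest and Cd36 lowest on patterned gelatin.

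The effect of patterned gelatin against plastic differed between D7 and D4 for 5 members, 2 with a more positive effect at D7, Acads (0.56 ± 0.16) and Idh2 (0.46 ± 0.12), and 3 with a more negative one, Cd36 (-0.83 ± 0.21), Dld (-0.47 ± 0.14) and Etfdh (-0.32 ± 0.09). Of all genes 6.24% and 5.5% did so, and the counts of members were near those shares. For Cd36 the effect was -0.04 at D4 and -0.87 at D7. No member was called without D4 plastic replicate 1 or 2, D4 patterned replicate 1 or 3 or D7 plastic replicate 1, each left out alone, up to 9 were called without D7 patterned replicate 1, and on the TPM scale, where the median of all genes was -0.16, limma called none higher and 9 lower.

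Beyond the members, 87 further genes of the same pathways were followed, of which 83 or 84 passed the filter. Between D7 and D0, 35 of 84 rose and 16 fell in primary cells (39 and 18 with the block), against 22.3% and 24.6% of all genes. In C2C12 cells on patterned gelatin 48 of 83 rose and 15 fell, against 34.3% and 33.4%. Acsl6, another long-chain acyl-CoA synthetase, rose by 3.66 ± 0.11 in C2C12 cells, while Fabp5, a fatty acid binding protein of other tissues, fell by 2.78 ± 0.16 and Slc25a10, the dicarboxylate carrier, by 1.87 ± 0.09. In primary cells Mgll, a monoacylglycerol lipase, rose by 5.05 ± 0.60, Perm1, a muscle regulator of mitochondrial genes, by 5.25 ± 1.23 and Esrrb, an estrogen-related receptor, by 4.98 ± 0.98, the last 2 from D0 values of 0.206 TPM or less with 1 library at 0. Acot1, a cytosolic acyl-CoA thioesterase, fell there by 2.57 ± 0.54, Slc25a10 by 1.81 ± 0.14 and Ehhadh, a peroxisomal enzyme, by 1.26 ± 0.42.

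Of 11 lipid droplet and lipolysis genes, 8 had a more positive change in primary than in C2C12 cells and none a more negative one, against 14% and 18.1% of all genes, including Plin4, a lipid droplet coat protein (4.28 ± 0.75), and Mgll (2.91 ± 0.44), at a median of 1.02 over the list. Perm1 among the regulators also had a more positive change (3.44 ± 0.99), and Klf15 (-3.34 ± 0.89), Ogdhl (-2.38 ± 0.23) and Acot1 (-1.35 ± 0.47) more negative ones. For the estrogen-related receptor Esrrg the scales disagreed, with a rise by counts of 4.13 ± 0.30 in C2C12 cells on patterned gelatin between D7 and D0 beside 2.00 ± 0.706 TPM at D7 and 1.38 ± 0.615 TPM at D0, so no change is reported for it.

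At D7, 20 of 83 of these genes were higher and 3 lower on patterned gelatin than on plastic, against 12.9% and 10.9% of all genes. A fit of the 2 groups alone called none of them. Acacb, the acetyl-CoA carboxylase that makes the CPT1 inhibitor malonyl-CoA, was higher at both days (1.62 ± 0.25 at D4 and 1.5 ± 0.24 at D7), and so was Perm1 (1.00 ± 0.23 at D4 and 1.27 ± 0.24 at D7). Perm1 had 0.862, 0.925 and 0.606 TPM on patterned gelatin, against 0.221, 0.420 and 0.400 TPM on plastic, at D7, low values with no overlap. Acot1 was higher on both gelatins at D7 (0.87 ± 0.17 on patterned and 0.93 ± 0.16 on unpatterned gelatin against plastic). Between patterned and unpatterned gelatin no gene of these lists passed edgeR's test on either day.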

How the data were processed

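RNA-seq libraries of 21 C2C12 and 9 primary samples were analysed. Estimated counts and TPM per transcript were deposited by the authors, who made them with Kallisto against the mouse build mm10 per the labels. Sources used here do not give its version, annotation or strand setting. Of 88198 transcripts 86031 matched GENCODE annotation of GRCm38 and were summed to 30205 genes, and the other 2167 held 0.723 to 0.893% of the counts. Summed estimated counts were rounded and tested with edgeR 4.0.16 (R 4.3.3; TMM, filterByExpr, quasi-likelihood F test, Benjamini-Hochberg adjustment over all genes) in fits of the 21 C2C12 libraries (14844 genes), the 9 primary libraries (14352) and, across cell types, all 30 (15447). SE was the fold change divided by the root of F. The procedure was tested on simulated data with the same dispersion in every library, so that unequal spread between groups was not covered.

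Alternatives were DESeq2 1.42.0, RLE factors, no filter, only the groups compared, a replicate block and leaving out each library. Added after seeing the data were limma 3.58.1 on log2(TPM + 1) and the omission of primary replicate 3 from every group. Counts of members under the alternatives are mostly given without the share of all genes, and show only how the counts moved. Same-numbered primary libraries deviated together (9 pairs, r 0.206 to 0.778, so the numbers were taken to pair them), and C2C12 libraries did not (63 pairs, r -0.187 to 0.223). The members and lists were chosen with earlier results of these data known. Every member was described by role, with values for a panel and for up to 6 highest and 6 lowest members past the threshold per comparison, and up to 3 each way of the other pathway genes. Promoters came from RefSeq on GRCm38.p6.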

Additional observations from a re-analysis of the deposited data

Results flagged for a closer look

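The change between D0 and D7 on patterned gelatin differed between primary and C2C12 cells for 18 members by edgeR's test of the difference itself, 9 each way, where 14% of all genes had a more positive and 18.1% a more negative change in primary cells. Both counts were near those shares. A fit of the 4 groups alone called 6 members. The change was more positive in primary cells for Cpt1b (4.06), Pdk4 (2.70), Cd36 (2.40), Acaa2 (1.46), Fabp3 (1.11), Acadm (1.03), Acadl (0.73), Eci2 (0.34) and Etfdh (0.34). It was more negative for Pcx (-0.86), Acadvl (-0.77), Pdhx (-0.66), Suclg1 (-0.64), Mpc2 (-0.62), Pdp1 (-0.54), Acads (-0.53), Mdh2 (-0.50) and Sucla2 (-0.43). Of these 18 calls 8 held in all 12 fits that left out 1 library. For Acaa2 the difference was 2.15 without primary replicate 3.

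The effect of patterned gelatin against plastic differed between D7 and D4 for 5 members, Acads (0.56), Idh2 (0.46), Cd36 (-0.83), Dld (-0.47) and Etfdh (-0.32), where 6.24% of all genes had a more positive and 5.5% a more negative effect at D7, and none of the 5 held in all fits that left out 1 library. The counts of members were near those shares.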

How the results depend on the processing

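Numbers of members called moved by over 1.5 times or crossed 0 in these cases. In fits of the compared groups alone they were 1 (patterned D7 against D4), 16 (D4 patterned against plastic), 15 (D4 unpatterned against plastic), 1 (D4 patterned against unpatterned), 0 (D7 patterned against plastic), 6 (difference between cell types) and 1 (difference between days). DESeq2 called 8 for D4 patterned against plastic, 2 for D4 and 3 for D7 patterned against unpatterned, 1 for D7 unpatterned against plastic and 8 for the difference between days. Without the filter the numbers were 5 (plastic D7 against D4), 3 (D4 patterned against plastic) and 3 (difference between days). Limma on log2(TPM + 1) called 26 (plastic D7 against D4), 1 (unpatterned D7 against D4), 13 (D4 patterned against plastic), 8 (D4 unpatterned against plastic) and 9 (difference between days). Without primary replicate 3 in any group, primary cells gave 43 at D4 and 47 at D7 against D0, and Acadm, at D7 in primary against C2C12 cells, changed sign to 0.24.

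Leaving out 1 library gave 3 to 14 members for plastic, 1 to 2 for unpatterned and 4 to 13 for patterned D7 against D4, 2 to 3 for D4 patterned and 0 to 3 for D4 unpatterned against plastic, 12 to 23 for D7 patterned and 0 to 3 for D7 unpatterned against plastic, 0 to 3 for D7 patterned against unpatterned, 11 to 20 for the difference between cell types and 0 to 9 for that between days. The causes were not tested. The replicate block gave 38 and 43 members in primary cells at D4 and D7 against D0, losing no member's call there, and took the Cpt1b call at D7 against D0 in C2C12 cells, where 7 of 21 libraries lay closest to their own number. Over all member values and settings 4010 kept direction and call, 307 lost and 75 gained a call, and 1 reversed. Depth limits Ucp3, Cd36 and Ppara in myoblasts, where few reads were counted.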
